A study of Mus musculus with 39 samples.

Results

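The 48 genes described here encode proteins that copy DNA or take cells through mitosis. They were chosen by name: each symbol of a written list was looked up, through its Ensembl identifier, in a lung and a colon expression table of 55357 genes each, and all 48 were found in both. The rule uses no measured value, but the list was written with earlier results of these data known. The list holds 15 genes of DNA replication (Pcna, Mcm2 to Mcm7, Cdc45, Cdc6, Gins2, Rrm1, Rrm2, Tyms, Tk1 and Pclaf), 3 regulators of entry into S phase (E2f1, Ccne1 and Ccne2) and 30 genes of G2 phase and mitosis. RNA was sequenced from lung and colon of C57BL/6N mice, either wild type (WT) or without Cd177 (KO), which encodes a glycoprotein on the neutrophil surface. The mice had undergone a sham operation or had acute pancreatitis (AP), in which the inflamed pancreas can set off injury elsewhere in the body. The 39 libraries fell into 8 groups of tissue, genotype and treatment, with 5 libraries in each group except colon of KO mice with AP, which held 4 (replicates 1, 3, 4 and 5). Age, the kind of Cd177 allele, how AP was induced and when tissue was taken are not stated in the sources at hand. The labels do not say that each library came from a separate animal, so the p-values measure the spread between these libraries, which may be technical.

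Cells that divide make these transcripts in waves. Before S phase, E2F factors released from the retinoblastoma protein switch on the genes for the MCM helicase, its loader Cdc6, the sliding clamp Pcna and the enzymes that supply deoxynucleotides. Later, the MuvB complex with B-Myb and FoxM1 switches on the genes of G2 phase and mitosis: cyclin B and Cdk1, the Aurora and Polo kinases, the motors of the spindle, the kinetochore and the checkpoint that holds back Cdc20 until chromosomes are attached. In resting cells the same promoters are held silent by the related DREAM complex. The colon keeps a population of dividing cells at the base of its crypts throughout life, whereas most cells of the adult lung are at rest, and dividing immune cells add to both tissues.

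The promoters of these genes carry the letters by which these regulators are known, and they are shown here because how often each motif occurs differs between the replication and the mitosis genes, a property that uses no expression value. RefSeq windows on GRCm38.p6, from 250 bases before to 50 bases after a gene's start, were found for 39 of the 48 genes (13 replication, 2 G1/S and 24 mitosis genes). The windows were searched on both strands for the cell cycle homology region (CHR, TTTGAA or TTCGAA), bound by MuvB, for the CCAAT box (CCAAT), bound by NF-Y, and for an E2F site (TTTCCCGC or TTTGGCGC). The CHR letters lay in the windows of 19 of 24 mitosis genes and of 3 of 13 replication genes, against 19.2% of all 32851 windows. A CCAAT box lay in 22 of 24 and in 10 of 13, against 37.4% of all windows. All 19 mitosis genes with the CHR letters also had a CCAAT box, a pairing found in 7.52% of all windows. The E2F letters lay in 6 of 13 replication genes and in none of the 24 mitosis genes, against 1.56% of all windows. No other spelling of an E2F site was searched, so a gene without a match may still hold such a site. Both G1/S genes with a window had none of these motifs. A match is a description of the letters and does not show that a factor binds there. The stretches below run from 170 bases before to 30 bases after the start of 4 mitosis genes, 2 replication genes and E2f1, written 5′ to 3′ along the gene, with motif matches in capitals.
Cdk1 (chr10:69352883-69353082, - strand): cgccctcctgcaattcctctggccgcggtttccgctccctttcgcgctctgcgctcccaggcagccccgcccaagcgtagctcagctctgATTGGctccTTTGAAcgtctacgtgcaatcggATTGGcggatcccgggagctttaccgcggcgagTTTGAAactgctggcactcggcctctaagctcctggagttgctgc
Ccnb1 (chr13:100786457-100786656, - strand): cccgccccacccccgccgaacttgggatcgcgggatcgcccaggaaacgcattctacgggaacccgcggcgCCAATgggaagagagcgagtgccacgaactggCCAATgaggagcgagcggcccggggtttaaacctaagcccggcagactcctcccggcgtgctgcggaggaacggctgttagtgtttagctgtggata
Ccnb2 (chr9:70421525-70421724, - strand): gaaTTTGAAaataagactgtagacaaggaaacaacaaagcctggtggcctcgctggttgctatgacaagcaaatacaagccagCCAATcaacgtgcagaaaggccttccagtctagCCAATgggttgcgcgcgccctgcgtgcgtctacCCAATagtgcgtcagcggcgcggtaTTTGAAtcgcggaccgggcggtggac
Plk1 (chr7:122159265-122159464, + strand): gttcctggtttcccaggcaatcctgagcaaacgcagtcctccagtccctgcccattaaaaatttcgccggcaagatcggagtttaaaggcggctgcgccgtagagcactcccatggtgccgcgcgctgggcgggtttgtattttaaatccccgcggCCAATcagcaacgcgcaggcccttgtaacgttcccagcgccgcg
Mcm6 (chr1:128359676-128359875, - strand): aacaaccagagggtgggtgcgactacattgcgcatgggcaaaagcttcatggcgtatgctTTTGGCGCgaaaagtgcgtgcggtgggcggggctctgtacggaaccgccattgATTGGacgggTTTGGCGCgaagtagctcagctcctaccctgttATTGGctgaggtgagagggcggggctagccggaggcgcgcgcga
Rrm2 (chr12:24708084-24708283, + strand): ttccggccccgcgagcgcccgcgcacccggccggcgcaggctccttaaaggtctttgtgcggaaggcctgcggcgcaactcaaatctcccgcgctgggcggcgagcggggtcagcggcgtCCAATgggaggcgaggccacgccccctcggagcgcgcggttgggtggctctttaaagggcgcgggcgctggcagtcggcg
E2f1 (chr2:154569397-154569596, - strand): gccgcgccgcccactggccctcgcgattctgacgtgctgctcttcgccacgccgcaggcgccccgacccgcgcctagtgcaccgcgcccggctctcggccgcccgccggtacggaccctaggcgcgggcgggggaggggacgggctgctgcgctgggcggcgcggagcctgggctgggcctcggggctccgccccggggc
In Cdk1, the kinase that drives mitosis, 2 CHR matches began 15 and 71 bases before the start, with CCAAT boxes (read on this strand as ATTGG) beginning 48 and 80 bases before it. Ccnb2, a B-type cyclin, had 3 CCAAT boxes in this stretch and 2 CHR matches, 1 beginning at base 5 after the start and 1 beginning 167 bases before it. In Plk1 the stretch shows a CCAAT box beginning 14 bases before the start, and the CHR match began at base 31, just past the stretch. Ccnb1, the other B-type cyclin, showed 2 CCAAT boxes and none of the CHR letters. Mcm6, a subunit of the helicase, showed 2 E2F matches, beginning 110 and 47 bases before the start, beside 2 CCAAT boxes. Rrm2, the regulated subunit of ribonucleotide reductase, showed a CCAAT box only, and E2f1 showed none of the letters searched.

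Expression is given as FPKM, in which the authors scaled fragment numbers by transcript length and sequencing depth, so levels can be compared between genes. Library totals recovered from the steps of the low values, in units of 1e6 reads, were 58.0 to 71.1 in WT lung, 76.9 to 95.3 in KO lung, 55.6 to 78.4 in WT colon and 77.6 to 98.4 in KO colon. The ranges of the genotypes did not overlap in lung and barely did in colon, so genotype went with depth. The part of depth, or of how WT and KO libraries were made, in the genotype differences was not tested. Cd177 was at 0 in all 19 KO libraries, and at 1.305 to 4.18 FPKM in WT lung and 38.5 to 76.4 FPKM in WT colon. The surfactant gene Sftpc was at 10200 FPKM or more in every lung library and at most 0.157 in colon, and the intestinal factor Cdx2 was at 8.31 FPKM or more in every colon library and at most 0.0334 in lung. Within each tissue, genes that reached 1 FPKM in 4 or more libraries entered limma on log2(FPKM + 1), with a threshold of 0.05 on the Benjamini-Hochberg adjusted p over 15978 lung and 15001 colon genes. All 48 members were tested in colon and 45 in lung, where Cenpe, Cenpf and Hmmr stayed below the filter. Log2 changes below are on the log2(FPKM + 1) scale, which understates the change of low genes, and carry standard errors (SE). The fit shares 1 spread among the groups, although KO libraries varied more than WT libraries. Weights that limma estimated for each group from its spread (group weights, an alternative chosen after seeing the data) were 2.16 and 1.57 for WT sham and WT AP lung against 0.450 and 0.654 for KO, and 1.35 and 1.47 for WT colon against 0.742 and 0.615 for KO.

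Within a group the members moved together from library to library, and a few libraries stood apart. Among the 4 KO AP colon libraries, replicate 3 held the lowest value for 46 of the 48 genes and replicate 1 the highest for 46. Among the KO sham colon libraries, replicate 1 was the lowest for 47 genes. Replicate 5 of WT AP colon was the highest for 44 genes and replicate 4 the lowest for 29, and in WT sham colon replicate 1 was the highest for 40 and replicate 2 the lowest for 38. In WT AP lung, replicate 4 was the lowest for 41 genes and replicate 5 the highest for 36. The share of FPKM on mitochondrial genes moved with several of these libraries, though not with all. It was 11.4% in WT AP lung replicate 4 against 5.13 to 6.21% in the other 4, 13.5% in KO sham colon replicate 1 against 4.62 to 10.3%, and 14.1% in WT sham colon replicate 2 against 7.47 to 9.66%. It was 10.6 to 19.1% in KO AP colon and 7.02 to 11.6% in WT AP colon, with the lowest KO value in replicate 1. KO AP colon replicate 3, the lowest for 46 genes, was at 12.9%, below replicates 4 (19.1%) and 5 (17.8%). KO AP lung replicate 4 had the highest share of its group, 14.0%, but was the lowest for only 8 genes. The part of this share in the results was not tested. Counts of members that passed moved with single libraries, and the counts without them are given beside each result.

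Levels were higher in colon than in lung for both roles, as read from tables that were made separately and were not tested against each other. The median replication gene had a mean of 3.88 FPKM in WT sham lung and 11.2 FPKM in WT sham colon, and the median mitosis gene 1.48 and 9.78 FPKM. Pcna, the sliding clamp of the polymerases, was the most abundant replication member in all 8 groups, at 38.3 ± 2.55 FPKM (SD, n = 5) in WT sham lung and 57.6 ± 7.93 FPKM (SD, n = 5) in WT sham colon. Cdc6, the helicase loader, was the least abundant of that role in every group. Among mitosis genes the checkpoint protein Bub3 was the most abundant in all 4 lung groups. In colon Cks2, a small subunit of Cdk complexes, led in WT sham, and Ube2c, the ubiquitin-conjugating enzyme that works with Cdc20, led in the other 3 groups. Cenpf, a kinetochore protein, was the lowest mitosis gene in all 8 groups, at 0.0505 to 0.548 FPKM in the WT lung libraries and 1.34 to 2.41 FPKM in WT sham colon. Cenpe, a kinetochore motor, spanned 0.157 to 0.724 FPKM over WT lung libraries, below the filter used for the tests.

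**Figure D1:**
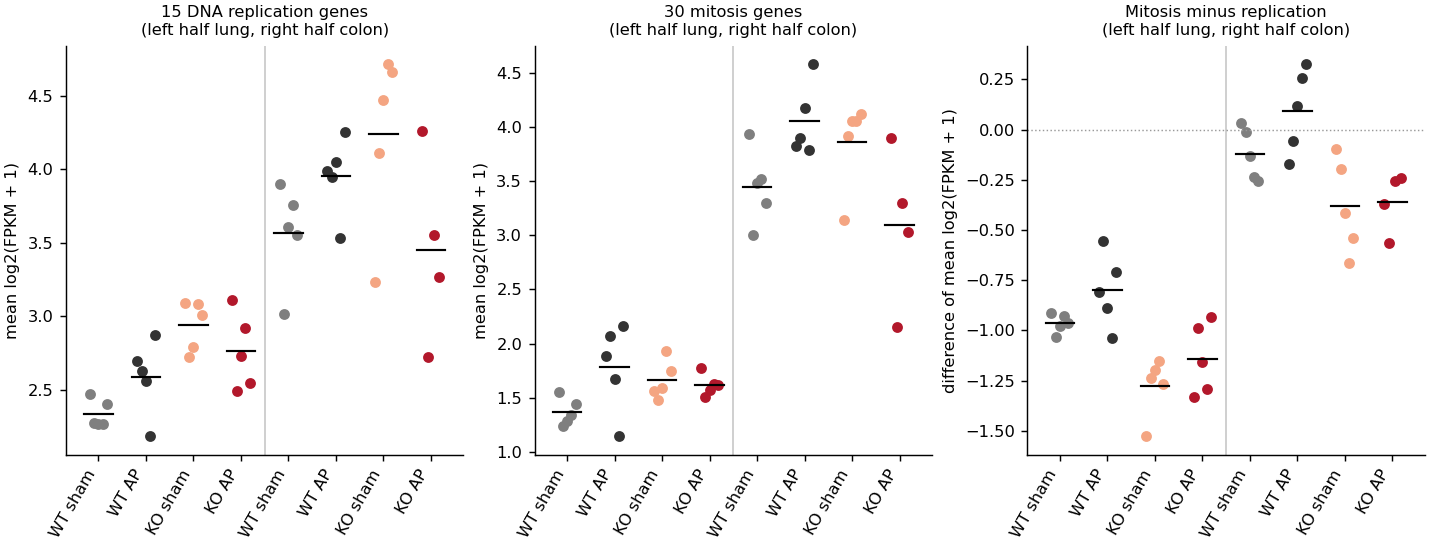
Mean log2(FPKM + 1) of the 15 replication genes and of the 30 mitosis genes, and the difference between the roles, with a point for each library and a line at each group mean; the left side of each panel is lung and the right side colon. In colon the mitosis mean of KO AP libraries spans 2.16 to 3.89 and that of WT AP libraries 3.79 to 4.58. The difference between the roles is below 0 in all 9 KO colon libraries. In WT colon it lies on both sides of 0 (-0.26 to 0.04 in sham, -0.17 to 0.33 in AP), and in lung it is below 0 in every library of both genotypes.

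In colon of mice with AP, 17 of the 30 mitosis genes were lower in KO than in WT. With limma, 18 of the 48 members passed, all lower in KO (10.9% of all tested colon genes passed as lower, 7.37% as higher and 18.3% in all). Beside these mitosis genes, 1 of the 15 replication genes passed, Rrm2, a call lost in 13 of the 19 fits that left out 1 library, with the replicate number as a block, with group weights and with no filter on low values. With group weights 12 members passed, all of them mitosis genes. The median log2 change was -1.0 over the mitosis genes and -0.45 over the replication genes, against -0.01 over all tested genes. Fewer dividing cells and less RNA per cell cannot be told apart in bulk tissue. In 8 of the 48, all among the 18, every KO library lay below every WT library. Such a separation was found for 8.61% of all tested genes, and no member was separated the other way (6.76%).

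Kifc1, a kinesin that focuses spindle poles, had the lowest p. It measured 10.9, 10.53, 14.1, 10.8 and 17.3 FPKM in the 5 WT AP colon libraries and 4.16, 2.13, 4.78 and 4.28 FPKM in the 4 KO AP libraries. The highest KO value lay below the lowest WT value by more than 5 FPKM, and the log2 change was -1.52 ± 0.25 (SE; limma adjusted p = 0.00114). Plk1, the Polo kinase, measured 35.2, 38.7, 48.8, 42.9 and 57.0 FPKM in WT AP and 29.0, 14.4, 18.9 and 16.9 FPKM in KO AP. These groups did not overlap either, and Plk1 fell by 1.16 on the log2 scale (limma adjusted p = 0.00428). Kif23, a motor of the central spindle needed for cytokinesis, went from 11.9 ± 3.33 FPKM (SD, n = 5) in WT AP to 4.30 ± 2.25 FPKM (SD, n = 4) in KO AP (limma adjusted p = 0.00463). Bub1b, the checkpoint kinase-like protein BubR1, went from 9.2 ± 2.67 to 3.07 ± 1.85 FPKM (limma adjusted p = 0.00901), and Cenpf from 2.68 ± 0.748 to 1.25 ± 0.452 FPKM (limma adjusted p = 0.00919). These 5 passed in each of the alternative settings and with each library left out in turn, and they were the only 5 of the 18 to do so.

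The other mitosis genes that fell spanned the steps of division. Foxm1, the transcription factor of this programme, had a log2 change of -1.26. Of the kinases and their cofactors, Aurka (-1.06), its activator Tpx2 (-0.995) and Aurkb (-1.13) fell. Of the spindle proteins, Kif20a (-1.39), Prc1 (-1.06), Nusap1 (-0.97) and Hmmr (-1.13) fell. At the centromere, the histone variant Cenpa (-1.01) and the motor Cenpe (-0.69) fell, and so did Cdc20 (-1.27), which activates the anaphase-promoting complex. Limma adjusted p-values of these 11 genes and of Mki67 lay between 0.0132 and 0.0494, and each of the 12 calls was lost in at least 1 of the 26 alternatives, from 1 for Kif20a to 20 for Aurkb. Mki67, which coats mitotic chromosomes and marks cycling cells, measured 14.3, 15.1, 16.1, 13.6 and 23.3 FPKM in WT AP and 15.6, 3.95, 9.91 and 8.30 FPKM in KO AP. KO replicate 1 lay within the WT range for Mki67 and the other 3 KO libraries below it (log2 change -0.85 ± 0.28, limma adjusted p = 0.0412).

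The central regulators Ccnb1, Top2a and Cdk1 did not pass, and in each the KO libraries were widely spread. Ccnb1, cyclin B1, measured 11, 13.2, 20.6, 10.8 and 27.3 FPKM in WT AP and 18.8, 1.89, 7.03 and 4.80 FPKM in KO AP (log2 change -1.20 ± 0.45, limma adjusted p = 0.0709). Top2a, which untangles sister chromatids, measured 39.1, 36.2, 40.9, 26.3 and 55.2 FPKM in WT AP and 37.8, 6.38, 25.3 and 17.7 FPKM in KO AP (limma adjusted p = 0.0774). Cdk1 measured 11.7, 9.01, 13.6, 9.87 and 18.2 FPKM in WT AP and 13.0, 2.62, 7.76 and 6.35 FPKM in KO AP (limma adjusted p = 0.0984). For all 3, KO replicate 1 lay inside the WT range and KO replicate 3 was the lowest of the 9 libraries. The 4 mitosis genes with the smallest changes were Bub3 (-0.19), Bora (-0.33), a cofactor of Aurka, Ube2c (-0.47) and Cks1b (-0.62). Cks2 measured 58.3, 42.0, 47.6, 63.2 and 87.6 FPKM in WT AP and 52.1, 23.3, 41.5 and 34.8 FPKM in KO AP, with groups that overlapped and a limma adjusted p of 0.0575.

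Among replication genes Rrm2 measured 16.8, 16.0, 14.8, 11 and 24.6 FPKM in WT AP and 15.6, 2.31, 8.33 and 4.86 FPKM in KO AP, with 3 of 4 KO libraries below every WT library (log2 change -1.21 ± 0.41, limma adjusted p = 0.0476). Mcm6 measured 19.7, 24.5, 24.0, 14.0 and 24.5 FPKM in WT AP and 31.1, 9.82, 16.9 and 11.7 FPKM in KO AP. Its KO libraries lay on both sides of the WT libraries, and the log2 change of -0.39 ± 0.36 did not pass. Mcm2 measured 10.01, 12.6, 14.0, 8.72 and 14.8 FPKM in WT AP and 13.5, 5.70, 6.95 and 7.18 FPKM in KO AP, and Pcna 74.5, 67.6, 73.6, 61.5 and 85.1 FPKM in WT AP and 109, 34.8, 69.1 and 45.8 FPKM in KO AP. Neither passed, and in both genes KO replicate 1 lay within or above the WT range. Log2 changes of the 15 replication genes ran from -1.21 for Rrm2 to 0.48 for Gins2, part of the replicative helicase, and 14 were below 0. E2f1, at 4.16, 4.02, 4.17, 2.92 and 5.31 FPKM in WT AP and 4.5, 2.002, 2.1 and 3.69 FPKM in KO AP, had overlapping groups and did not pass. Ccne1 (-0.42) and Ccne2 (0.11), the E-type cyclins, did not pass either.

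The count of members that passed in this comparison moved with single libraries, though 46 to 47 of the 48 changes stayed below 0 with any 1 library left out. It was 18 with all libraries and 30 lower without KO AP replicate 1. It fell to 5 lower and 1 higher without KO AP replicate 3, to 6 lower without WT AP replicate 5, to 7 without WT AP replicate 3 and to 9 without KO AP replicate 5. It was 12 without KO AP replicate 4 or WT AP replicate 2, and 14 to 23 without any other library. With no filter on low values it was 7, all mitosis genes. Of the 13 mitosis members that fell and had a promoter window, 11 held the CHR letters, and of the 11 with a window that did not pass, 8 held them.

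**Figure D2:**
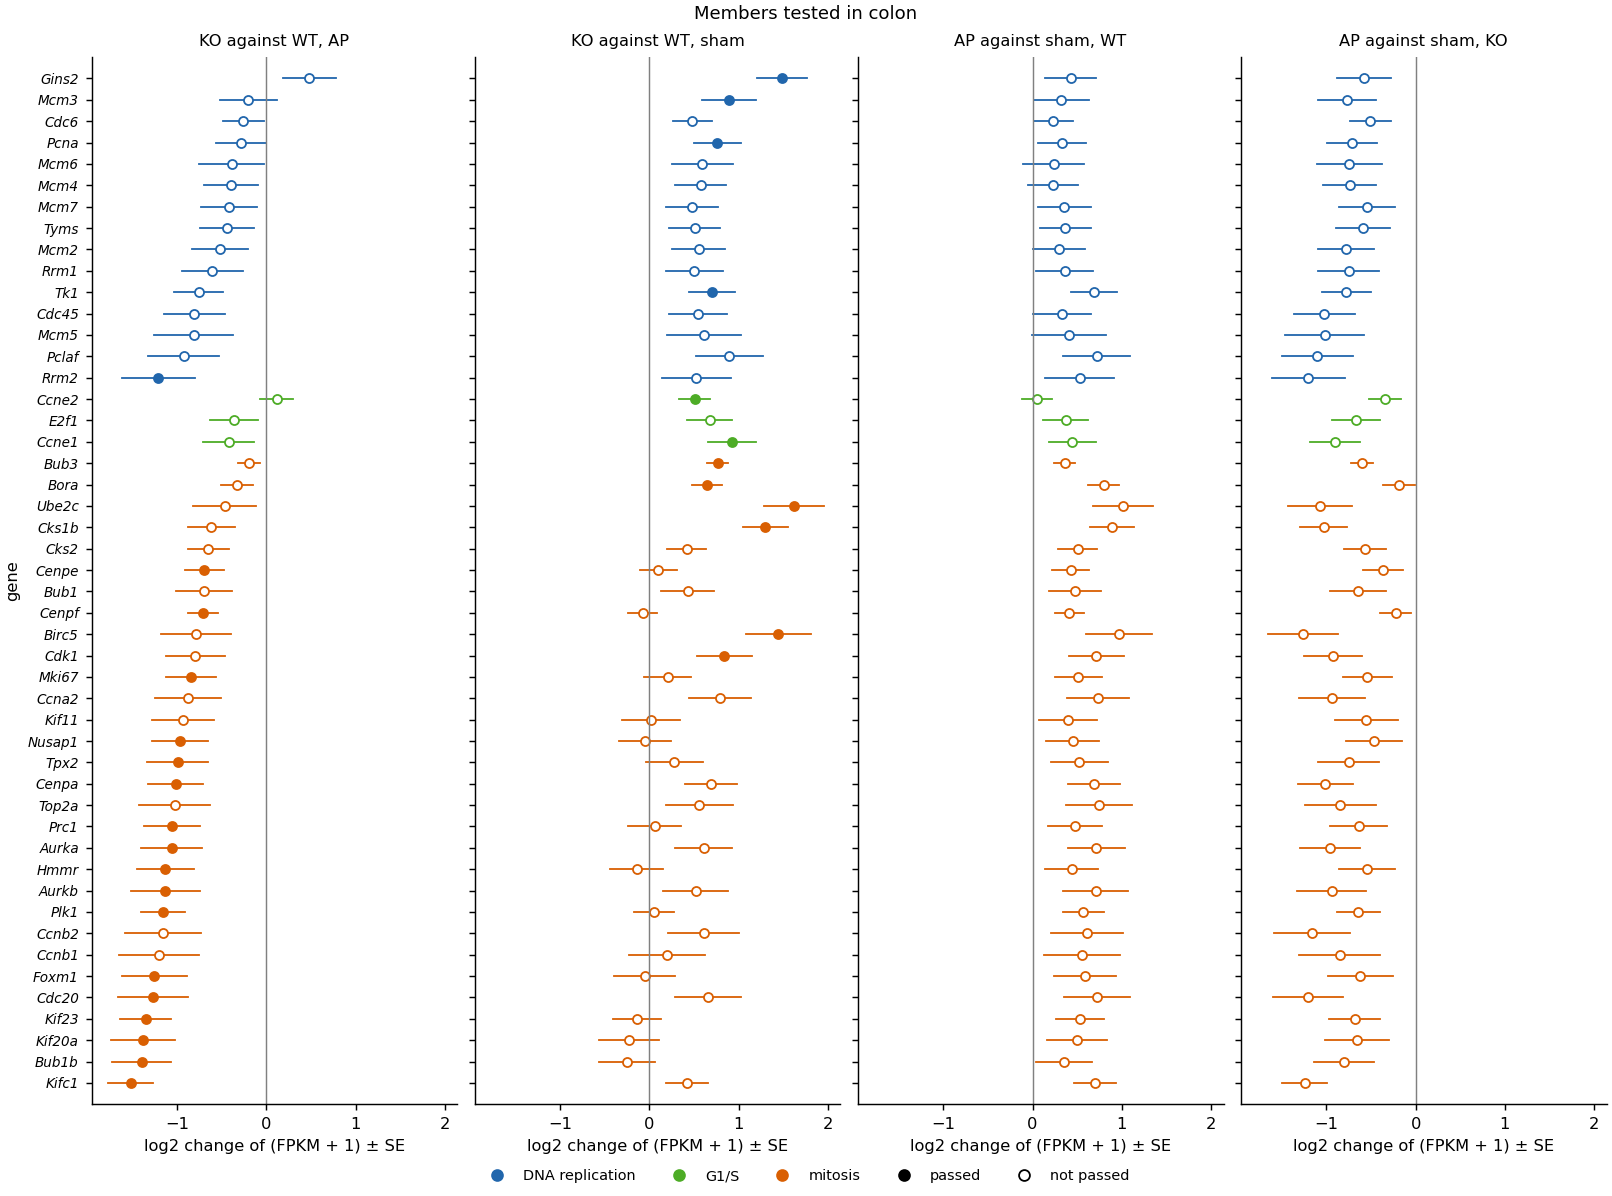
Log2 change of (FPKM + 1) with its SE for each of the 48 genes in colon, in 4 comparisons, with genes in the same order in each panel; filled points passed the limma threshold. The mitosis genes lie at or below -0.19 in KO against WT with AP, and all 48 points of AP against sham lie above 0 in WT (47 on the TPM scale) and below 0 in KO; each group of libraries enters 2 panels.

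After the sham operation the difference between genotypes in colon ran the other way, and it was led by other genes. With limma 12 of 48 members passed, all higher in KO (16.0% of all tested colon genes passed as higher, 15.4% as lower and 31.4% in all). They were 4 of 15 replication genes, 2 of 3 G1/S genes and 6 of 30 mitosis genes. The median log2 change was 0.57 over the replication genes, 0.42 over the mitosis genes and 0.01 over all tested genes. In 4 of the 48, all among the 12, every KO library lay above every WT library. That is close to the share of all tested genes (9.13%). In none did every KO library lie below every WT library (8.15% of all tested genes). The comparisons of genotypes in sham and in AP share no library with each other, but each shares both its groups with the comparisons of AP against sham.

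Bub3 measured 21.0, 19.7, 20.5, 24.8 and 19.4 FPKM in WT sham colon and 30.04, 42.2, 37.0, 37.4 and 36.5 FPKM in KO sham colon. The groups did not overlap, and the log2 change was 0.77 ± 0.12 (limma adjusted p = 0.000266). Gins2 measured 9.69, 13.1, 7.64, 5.47 and 5.24 FPKM in WT sham and 25.9, 23.8, 22.0, 24.3 and 22.1 FPKM in KO sham (log2 change 1.48 ± 0.28, limma adjusted p = 0.00118). All KO values lay above 20 FPKM and all WT values below 15 FPKM. Cks1b, the paralogue of Cks2, rose from 11.5 ± 2.26 to 30.6 ± 8.90 FPKM (SD, n = 5 each; limma adjusted p = 0.00122). Ube2c rose from 38.0 ± 9.12 to 120.5 ± 33.8 FPKM (limma adjusted p = 0.00197), and the chromosomal passenger Birc5 from 20.3 ± 6.53 to 58.8 ± 23.7 FPKM (limma adjusted p = 0.00718). These 5 of the 12 passed in each of the alternative settings and with each library left out in turn. How reads shared between Cks1b and any copies of it were assigned is not stated in the sources at hand.

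The other 7 were Bora (0.65), Ccne1 (0.93), Ccne2 (0.51), the helicase subunit Mcm3 (0.89), Pcna (0.76), the thymidine kinase Tk1 (0.70) and Cdk1 (0.84), with overlapping groups in each and with calls lost in 1 of 26 alternatives for Bora to 19 for Tk1. Pcna measured 64.6, 45.6, 54.4, 64.4 and 59 FPKM in WT sham and 51.1, 92.1, 109, 131 and 129.9 FPKM in KO sham. Cdk1 measured 11.4, 5.10, 6.52, 7.45 and 5.82 FPKM in WT sham and 6.64, 16.1, 16.0, 15.6 and 15.4 FPKM in KO sham (limma adjusted p = 0.046). In both genes KO replicate 1 lay within the WT range and the other 4 KO libraries above it. Mcm6 (21.6, 10.3, 18.4, 23.1 and 17.7 FPKM in WT sham, 10.2, 24.1, 35.1, 39.6 and 40.9 in KO sham) and Mcm2 (11.3, 5.30, 10.1, 11.8 and 10.2 in WT sham, 6.26, 11, 17.4, 23.6 and 20.2 in KO sham) showed the same low KO replicate 1, and neither passed. Rrm2 (14.6, 6.71, 11.7, 11.7 and 11.2 FPKM in WT sham, 6.03, 13.8, 19.4, 26.5 and 23.6 in KO sham) and E2f1 (4.10, 1.34, 2.67, 3.99 and 3.20 FPKM in WT sham, 2.71, 3.85, 6.76, 7.80 and 6.70 in KO sham) did not pass either.

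Of the 17 mitosis genes that fell in KO AP colon, 7 lay below 0 in KO sham colon as well. Kif23 (-0.14), Kif20a (-0.23), Bub1b (-0.25), Hmmr (-0.14), Cenpf (-0.08), Foxm1 (-0.05) and Nusap1 (-0.05) had changes that did not pass, and the other 41 of the 48 members lay above 0 (37 on the TPM scale). Mki67 measured 15.8, 8.11, 11.4, 11 and 10.2 FPKM in WT sham and 7.88, 13.5, 15.4, 13.1 and 16.5 FPKM in KO sham. Top2a measured 33.1, 12.8, 24.1, 24.7 and 22.9 FPKM in WT sham and 15.4, 42.9, 40.2, 35.3 and 45.7 FPKM in KO sham. Ccnb1 measured 16.6, 6.67, 11.5, 10.3 and 8.64 FPKM in WT sham and 4.83, 10.2, 17.0, 16.4 and 17.0 FPKM in KO sham. The groups overlapped in all 3 genes, none of which passed. Cks2 (49.4, 48.4, 32.1, 41.2 and 34.1 FPKM in WT sham, 38.9, 66.7, 58.3, 57.1 and 55.1 in KO sham) did not pass (limma adjusted p = 0.151).

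Without KO sham replicate 1 the count of members higher in KO rose from 12 to 25, of which 13 were replication genes, 3 G1/S genes and 9 mitosis genes. Without KO sham replicate 3, 4 or 5, or WT sham replicate 2 or 3, it was 7, without WT sham replicate 5 it was 8, and without any other library it was 9 to 15. On the TPM scale, in which every library sums to the same total, it was 5, and the median of all tested genes moved by -0.16 (log2). With no filter on low values it was 7.

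**Figure D3:**
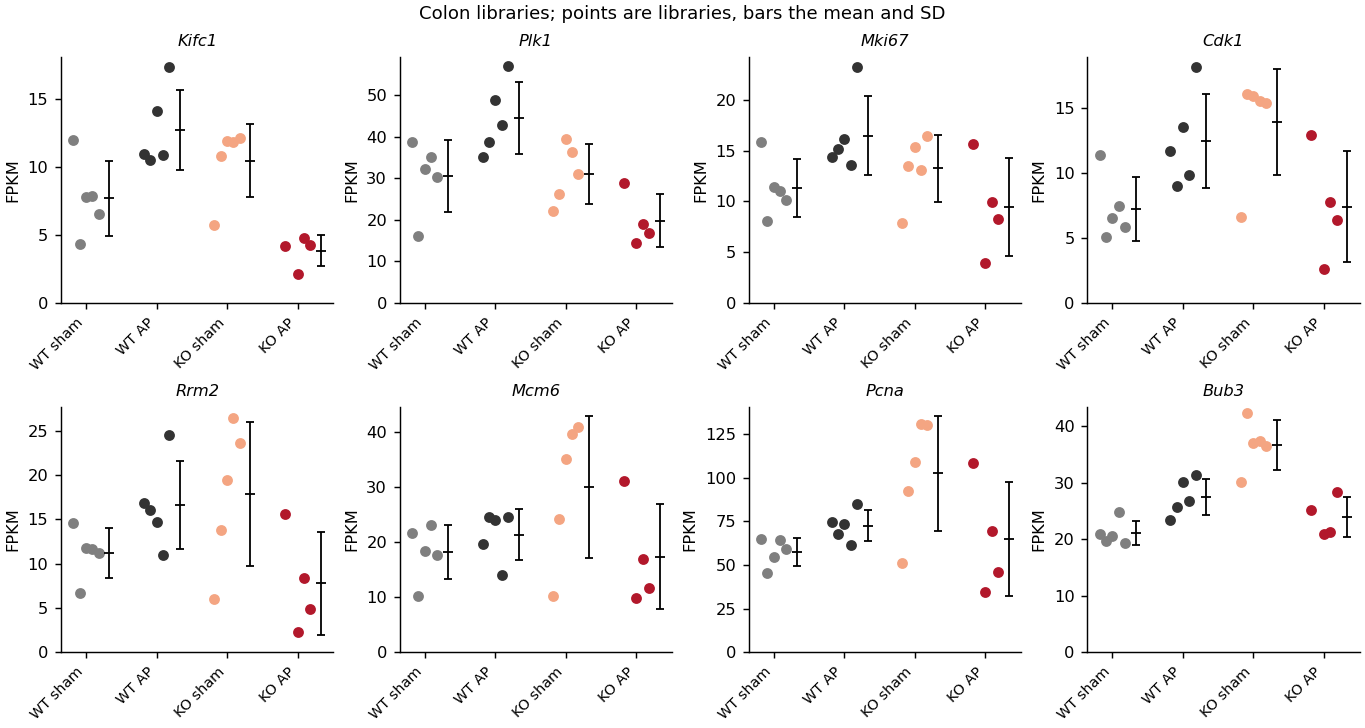
FPKM of 8 members in every colon library, with replicates side by side and bars for the mean and SD of each group. Kifc1 and Plk1 in KO AP lie below all WT AP libraries. For Kifc1, Cdk1, Rrm2, Mcm6 and Pcna, replicate 1 of KO sham and replicate 3 of KO AP are the lowest of their groups.

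The difference between AP and sham had opposite signs in WT and KO colon, and no member passed in either genotype. In WT colon all 48 changes were above 0, with a median of 0.49, while 53.1% of all tested genes lay above 0. No member passed with limma (0.0% of all tested genes passed), and 14 members had an unadjusted p under 0.05, against 6.25% of all tested genes. In KO colon all 48 were below 0, with a median of -0.75, while 53.9% of all tested genes lay below 0. No member passed there either (0.04% of all tested genes passed, 0.02% as higher and 0.02% as lower), and 31 members had an unadjusted p under 0.05, against 18.7% of all tested genes. These 2 comparisons share no library. Members vary together within a library, so 48 genes on 1 side of 0 are not 48 separate observations.

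In WT colon the lowest p-values belonged to Bora, Cks1b and Bub3. Bora measured 7.58, 3.43, 5.90, 5.86 and 4.17 FPKM after sham and 8.89, 8.78, 8.54, 10.7 and 12.5 FPKM with AP, groups that did not overlap (log2 change 0.79 ± 0.17, limma adjusted p = 0.685). Cks1b measured 14.2, 12.3, 10.9, 12.3 and 8.08 FPKM after sham and 24.2, 19.7, 18, 20.2 and 28.9 FPKM with AP, also without overlap (log2 change 0.89 ± 0.25, limma adjusted p = 0.791). These were the 2 members whose groups did not overlap, a separation with AP higher found for 1.29% of all tested genes and with AP lower for 1.09%. Bub3 had a log2 change of 0.36 ± 0.12 with a limma adjusted p of 0.791. Mki67 averaged 11.3 ± 2.83 FPKM after sham and 16.5 ± 3.91 FPKM with AP (SD, n = 5 each).

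In KO colon Kifc1 measured 5.69, 10.8, 11.9, 11.8 and 12.1 FPKM in KO sham and 4.16, 2.13, 4.78 and 4.28 FPKM in KO AP (log2 change -1.24 ± 0.25, limma adjusted p = 0.0652). Bub3 measured 30.04, 42.2, 37.0, 37.4 and 36.5 FPKM in KO sham and 25.2, 20.9, 21.3 and 28.3 FPKM in KO AP (log2 change -0.60 ± 0.12, limma adjusted p = 0.0652). In both genes every AP library lay below every sham library, as for 1.31% of all tested genes (1.56% were separated with AP higher). Cks1b went from 30.6 ± 8.90 FPKM (SD, n = 5) to 14.8 ± 5.66 FPKM (SD, n = 4), with a limma adjusted p of 0.0931. Without KO sham replicate 1, 21 members passed as lower with AP, 10 of them replication genes. Without KO AP replicate 1, 16 passed, and without WT sham replicate 2, a library outside the contrast that enters through the shared variance, 2 passed. Without any other library none passed.

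The difference between the 2 responses, KO minus WT, was tested directly and was below 0 for all 48 members in colon, with a median of -1.15 (52.6% of all tested genes lay below 0). No member passed with limma (0.0% of all tested genes passed), and 44 members had an unadjusted p under 0.05, against 18.8% of all tested genes. The lowest adjusted p-values were those of Bub3 (log2 difference -0.96 ± 0.17, limma adjusted p = 0.0808), Kifc1 (-1.94 ± 0.35, limma adjusted p = 0.0808) and Cks1b (-1.92 ± 0.36, limma adjusted p = 0.0906). The largest difference was that of Birc5 (-2.23 ± 0.54), which had group means of 20.3 FPKM in WT sham, 41.7 in WT AP, 58.8 in KO sham and 25.5 in KO AP. Medians were -1.07 for the replication genes and -1.21 for the mitosis genes. Leaving out KO sham replicate 1 raised the count that passed to 29, leaving out KO AP replicate 1 raised it to 15, and without any other library it was 0. All 48 differences stayed below 0 with each library left out and on the TPM and upper-quartile scales. On the TPM scale 47 of the 48 changes in WT colon were above 0, and all 48 in KO colon below 0.

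In lung after the sham operation, most replication genes and a smaller share of the mitosis genes were higher in KO than in WT. With limma 19 of 45 tested members passed in sham, 18 higher and 1 lower in KO, where 28.8% of all tested lung genes passed as higher and 30% as lower. Higher were 9 of 15 replication genes, 1 of 3 G1/S genes and 8 of 27 mitosis genes, the last close to the share of all genes. Most lung genes differed between the genotypes (58.8% of all tested genes), and the share of members that passed (19 of 45) was below that. The median log2 change was 0.58 over the replication genes, 0.26 over the mitosis genes and -0.01 over all tested genes.

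Gins2 measured 0.277, 0.684, 0.659, 0.365 and 1.25 FPKM in WT sham lung and 13.2, 4.16, 8.25, 9.28 and 14.5 FPKM in KO sham lung. Every KO library was more than 2 FPKM above every WT library, and the log2 change was 2.65 ± 0.32 (limma adjusted p = 1.68e-06). Cks1b measured 3.92, 2.36, 3.66, 4.87 and 4.89 FPKM in WT sham and 29.1, 17.4, 13.1, 14.7 and 22.4 FPKM in KO sham (log2 change 2.01 ± 0.22, limma adjusted p = 7.03e-07). Bub3 measured 21.4, 22.2, 23.9, 21.7 and 23.0 FPKM in WT sham and 46.2, 29.98, 36.0, 37.6 and 52.0 FPKM in KO sham (log2 change 0.79 ± 0.12, limma adjusted p = 2.59e-05). None of these groups overlapped. Cks2 and Birc5 rose as well, from 4.52 ± 0.329 to 8.02 ± 1.45 FPKM (limma adjusted p = 4.44e-05) and from 1.75 ± 0.706 to 6.28 ± 2.22 FPKM (limma adjusted p = 6.60e-05). With a transcript length trend removed the log2 change of Cks2, whose transcript is the shortest among the members, went from 0.69 to 0.28 and did not pass (limma adjusted p = 0.0925). Ube2c, Cdk1, Aurka and Kifc1 were the other mitosis genes that were higher. The 1 member that fell was Bub1b, from 2.08 ± 0.295 to 1.001 ± 0.207 FPKM (limma adjusted p = 0.00386).

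The 9 replication genes that rose in KO sham lung included the clamp and 4 of the 6 MCM subunits (on the TPM scale 5 of the 15 replication genes rose). Pcna measured 36.9, 38.8, 36.7, 36.7 and 42.6 FPKM in WT sham and 82.0, 55.5, 52.5, 53.6 and 69.3 FPKM in KO sham (log2 change 0.67 ± 0.13), a call lost with the length trend removed (limma adjusted p = 0.145). Mcm6 measured 8.66, 7.87, 7.27, 8.59 and 7.20 FPKM in WT sham and 15.5, 11.7, 11.4, 13.8 and 20.8 FPKM in KO sham (0.78 ± 0.17), and Mcm2 4.70, 3.84, 3.83, 3.5 and 3.52 FPKM in WT sham and 6.57, 5.07, 5.31, 7.27 and 5.46 FPKM in KO sham (0.50 ± 0.16). The groups did not overlap in these 3 genes, and Mcm3 (0.76), Mcm5 (0.58), the helicase factor Cdc45 (0.53), thymidylate synthase Tyms (0.60) and the Pcna-binding protein Pclaf (0.64) passed too. Mcm4 (0.06), Mcm7 (0.16), Rrm1 (0.11) and Tk1 (0.08) had small changes that did not pass, and Rrm2 (3.31, 1.61, 1.58, 1.22 and 2.53 FPKM in WT sham, 3.85, 2.35, 3.81, 5.27 and 3.08 in KO sham) did not pass (limma adjusted p = 0.0661). E2f1 rose, from 2.52, 2.77, 3.09, 2.89 and 2.66 FPKM in WT sham to 4.43, 2.92, 3.75, 5.09 and 5.39 FPKM in KO sham (limma adjusted p = 0.00768). Cdk1 measured 0.935, 1.25, 0.472, 0.550 and 0.564 FPKM in WT sham and 2.03, 1.79, 1.83, 1.85 and 1.97 FPKM in KO sham and passed.

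Mki67, Top2a and Ccnb1, all low in lung, did not pass after the sham operation. Mki67 measured 1.5, 0.778, 0.819, 0.981 and 1.67 FPKM in WT sham and 0.942, 1.06, 1.35, 2.87 and 1.90 FPKM in KO sham. Top2a measured 2.82, 1.35, 1.91, 1.85 and 3.06 FPKM in WT sham and 3.78, 3.30, 3.35, 5.73 and 3.93 FPKM in KO sham, without overlap but with a limma adjusted p of 0.0519. Ccnb1 measured 1.35, 0.579, 0.995, 0.659 and 0.867 FPKM in WT sham and 0.455, 0.251, 0.986, 0.824 and 0.355 FPKM in KO sham, with overlap. In all, the groups did not overlap for 16 members that were higher (19.3% of all tested genes) and for Bub1b, which was lower (22.5%). On the TPM scale 27 of 45 changes lay above 0, against 37 on the FPKM scale. Of the 19 calls, 10 held in every alternative, namely Gins2, Mcm3, Mcm6, Tyms, Cks1b, Bub3, Birc5, Ube2c, Cdk1 and the lower Bub1b. The count that passed was 16 to 22 with any 1 library left out and 15 with group weights. It was 12 on the TPM scale (11 higher and 1 lower), where the median of all tested genes moved by -0.25 (log2), and 16 (13 higher and 3 lower) with 3 KO libraries that stood apart from their groups left out together (replicates 4 and 5 of KO sham, replicate 3 of KO AP).

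**Figure D4:**
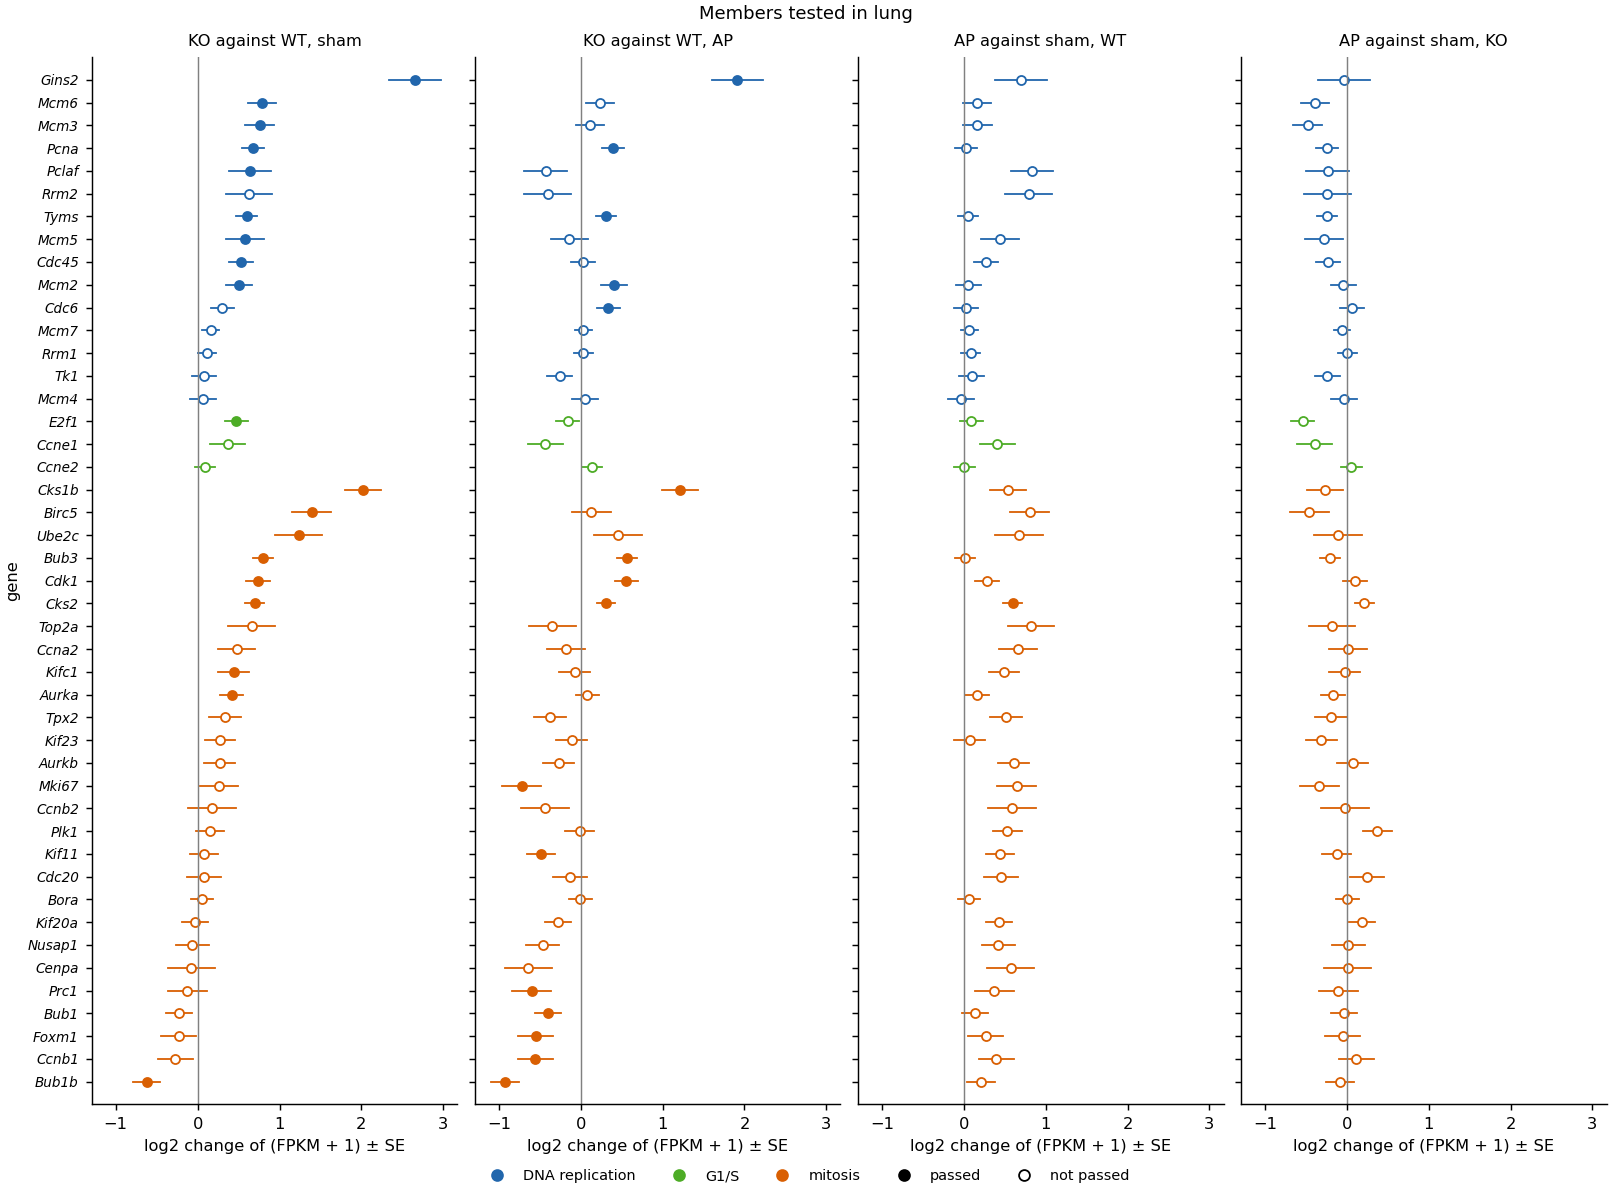
Log2 change of (FPKM + 1) with its SE for each of the 45 members tested in lung, in 4 comparisons, with genes in the same order in each panel; filled points passed the limma threshold. In KO against WT after sham the replication genes have a median of 0.58 (0.41 on the TPM scale), and with AP the mitosis genes have a median of -0.27 (-0.47 on the TPM scale).

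In lung of mice with AP, KO and WT differed in both directions. Of all tested genes 27.6% passed as higher, 28.1% as lower and 55.8% in all, and the members stayed below each of these shares. With limma 16 of 45 members passed, 9 higher and 7 lower in KO. The replication genes among them (5 of 15) were all higher, but 1 was higher and 3 lower without WT AP replicate 4 (median -0.023), and only 1 was higher without KO AP replicate 1 (median -0.0028). Without any other library 2 to 5 were higher and none lower. Of 27 mitosis genes 4 were higher and 7 lower. Medians were 0.05 for the replication genes and -0.27 for the mitosis genes, against 0.00 over all tested genes. On the TPM scale 4 members were higher and 10 lower, with 1 replication gene in each direction and a median of -0.12 for these genes, while the median of all tested genes moved by -0.18 (log2), and with upper-quartile scaling 7 were higher and 9 lower. With a pseudocount of 0.1 the split was 8 higher and 3 lower, and with group weights 7 higher and 4 lower. The 5 calls that held in every alternative were those of Gins2, Cks1b, Bub3 and Cdk1, higher, and Bub1b, lower.

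Gins2 (2.85, 0.679, 0.683, 3.46 and 1.57 FPKM in WT AP, 15.1, 7.17, 10.8, 8.26 and 5.61 in KO AP; log2 change 1.91 ± 0.32, limma adjusted p = 6.19e-05) was the member with the lowest p. Cks1b (6.82, 7.27, 4.85, 4.80 and 6.83 FPKM in WT AP, 21.5, 12.1, 14.3, 20.5 and 10.6 in KO AP) and Bub3 (23.2, 21.3, 23.1, 22.7 and 23.6 FPKM in WT AP, 39.3, 27.2, 38.0, 35.4 and 32.3 in KO AP) rose, with log2 changes of 1.21 ± 0.22 and 0.57 ± 0.12. In these 3 genes the groups did not overlap, as for 19.3% of all tested genes in that direction, and no member was separated with KO lower (18.7%). Cdk1 measured 1.07, 1.29, 0.865, 0.678 and 1.75 FPKM in WT AP and 2.73, 1.59, 2.20, 2.44 and 1.68 FPKM in KO AP (limma adjusted p = 0.00319). Pcna measured 40.6, 41.6, 38.0, 31.3 and 45.7 FPKM in WT AP and 65.5, 44.0, 52.7, 54.0 and 45.3 FPKM in KO AP (limma adjusted p = 0.018), a call lost in 4 alternatives (adjusted p from 0.00886 to 0.757 over all of them). Mcm2 (4.06, 4.39, 4.35, 2.70 and 5.10 FPKM in WT AP, 7.46, 4.01, 5.95, 7.32 and 4.49 in KO AP), Tyms, Cdc6 and Cks2 (7.44, 8.22, 5.88, 7.16 and 8.29 FPKM in WT AP, 9.79, 9.61, 8.09, 10.53 and 8.85 in KO AP) were the other 4 that were higher. Mcm6 (9.90, 9.27, 10.03, 6.08 and 10.1 FPKM in WT AP, 15.8, 8.26, 10.7, 11.6 and 8.54 in KO AP), Rrm2 (5.53, 5.31, 3.38, 1.37 and 7.28 FPKM in WT AP, 4.63, 1.48, 2.41, 3.40 and 3.18 in KO AP) and E2f1 (2.98, 2.79, 3.22, 2.84 and 3.30 FPKM in WT AP, 3.82, 2.81, 2.51, 2.50 and 1.68 in KO AP) did not pass.

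Lower in KO AP lung were Bub1b, Mki67, Kif11, Ccnb1, Foxm1, Bub1 and Prc1. Bub1b measured 2.25, 3.27, 2.53, 1.32 and 4.05 FPKM in WT AP and 1.38, 0.525, 1.03, 0.617 and 0.965 FPKM in KO AP (log2 change -0.92 ± 0.17, limma adjusted p = 0.000171) and passed in each alternative setting. Mki67 measured 2.68, 3.39, 2.08, 0.662 and 3.89 FPKM in WT AP and 1.18, 1.05, 0.985, 1.14 and 0.741 FPKM in KO AP. WT replicate 4 was the lowest of the 10 libraries and the other 4 WT libraries lay above every KO library (limma adjusted p = 0.0146). Ccnb1 measured 1.73, 2.05, 1.51, 0.231 and 2.52 FPKM in WT AP and 0.620, 0.854, 0.635, 0.574 and 0.726 FPKM in KO AP, with WT replicate 4 again the lowest (limma adjusted p = 0.0335). Kif11, the motor that separates spindle poles, and Foxm1 had log2 changes of -0.49 ± 0.17 and -0.55 ± 0.21. Over all alternatives adjusted p ran from 0.000347 to 0.313 for Mki67, from 0.000248 to 0.108 for Ccnb1, from 0.000264 to 0.206 for Kif11 and from 0.00143 to 0.173 for Foxm1. With the length trend removed, Mki67 went from -0.72 to -0.28, Kif11 from -0.49 to -0.25 and Foxm1 from -0.55 to -0.33, and none of the 3 passed. Top2a (6.36, 6.78, 4.10, 1.13 and 7.46 FPKM in WT AP, 4.64, 3.12, 2.73, 4.12 and 2.58 in KO AP) did not pass. Without WT AP replicate 4, 18 members were lower and 5 higher, without WT AP replicate 5 only Bub1b was lower and 8 were higher, and with WT AP replicate 1 left out 6 were higher and 3 lower. Leaving out WT AP replicate 2 gave 8 higher and 2 lower, and WT AP replicate 3 gave 6 higher and 4 lower. Leaving out KO AP replicate 1 gave 4 higher and 6 lower, and KO AP replicate 4 gave 5 higher and 5 lower.

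Between AP and sham, 1 member passed in WT lung and none in KO lung. In WT lung 44 of 45 changes were above 0 (41 on the TPM scale), with a median of 0.40 (0.10 for replication and 0.45 for mitosis genes), while 46.9% of all tested genes lay above 0. Only Cks2 passed, and it was higher with AP (0.0814% of all tested genes passed, 0.025% as higher and 0.0563% as lower). It measured 4.69, 4.14, 4.23, 4.94 and 4.61 FPKM after sham and 7.44, 8.22, 5.88, 7.16 and 8.29 FPKM with AP, without overlap (log2 change 0.60 ± 0.11, limma adjusted p = 0.0474). A separation with AP higher was found for 1.21% of all tested genes and with AP lower for 3.84%, and the call was lost in 15 of the 20 fits that left out a library, on the TPM scale, without the filter on low values and with the length trend removed (adjusted p from 0.000708 to 0.341 over all alternatives). With group weights 5 members passed, all higher with AP (Cks2, Birc5, Aurkb, Plk1 and Pclaf), among 394 of all tested genes. Birc5 (0.80), Pclaf (0.83), Top2a (0.83) and Rrm2 (0.79) had larger changes that did not pass, and 18 members had an unadjusted p under 0.05, against 6.67% of all tested genes. WT AP replicate 4, the lowest WT AP library for 41 genes, had a summed level of T and NK cell markers of 44.0 FPKM against 102 to 164 FPKM in the other 4, beside its higher mitochondrial share, and the part of these cells in the result was not tested.

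In KO lung 31 of 45 changes were below 0, with a median of -0.09 (-0.23 for replication and -0.04 for mitosis genes), and no member passed with limma (0.0125% of all tested genes passed). With any 1 library left out 9 to 21 changes lay above 0. Without the 3 KO libraries that stood apart 22 lay above 0 and 23 below, with a mitosis median of 0.09, and without KO sham replicate 4 alone that median was 0.07. No member had groups without overlap (0.532% of all tested genes were separated with AP higher and 0.376% with AP lower). At an unadjusted p under 0.05 there were 4 members, against 14% of all tested genes. The lowest were E2f1 (4.43, 2.92, 3.75, 5.09 and 5.39 FPKM in KO sham, 3.82, 2.81, 2.51, 2.50 and 1.68 in KO AP; log2 change -0.54 ± 0.14, limma adjusted p = 0.141), Mcm3 (-0.48 ± 0.17) and Mcm6 (-0.39 ± 0.17). The difference between the responses, KO minus WT, had a median of -0.40 and was below 0 for 43 of 45 members, and none passed (0.0% of all tested genes passed), with 15 members at an unadjusted p under 0.05 against 8.66% of all tested genes. Birc5 (-1.26 ± 0.34, limma adjusted p = 0.442), E2f1 (-0.63 ± 0.20) and Pclaf (-1.07 ± 0.36) had the lowest p.

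**Figure D5:**
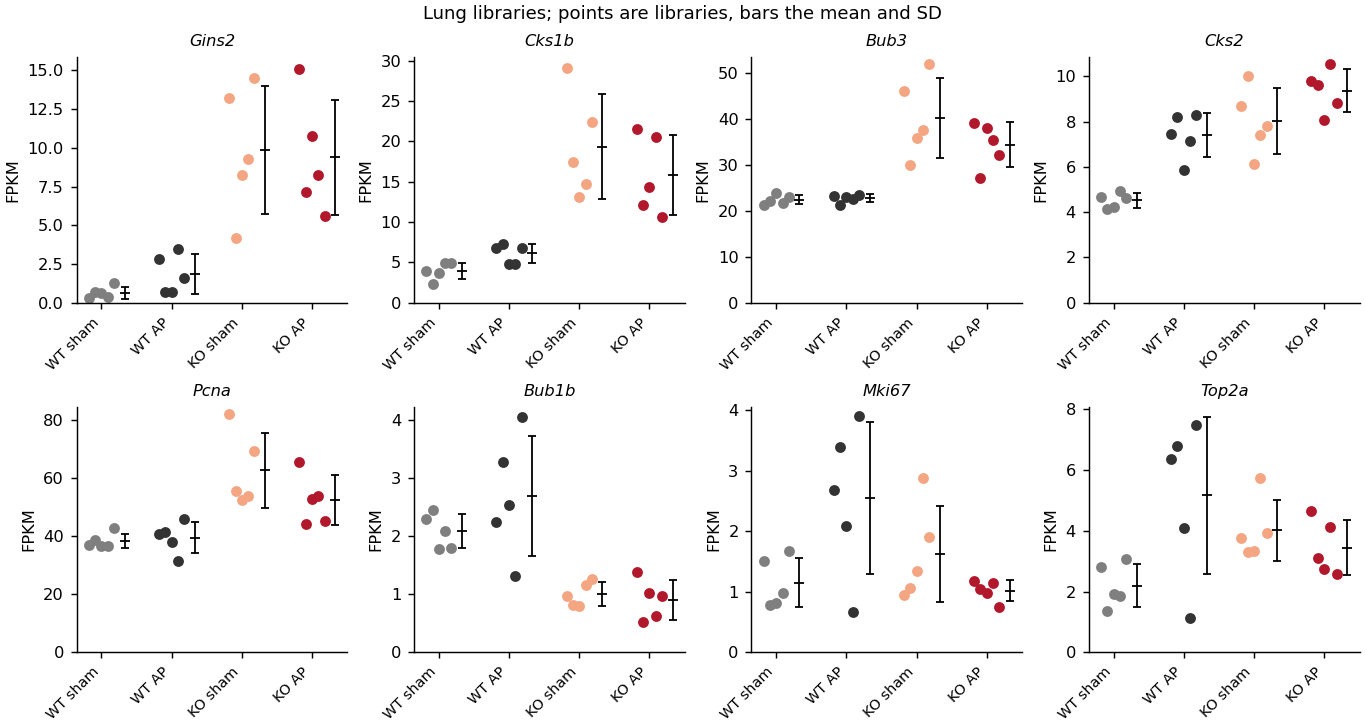
FPKM of 8 members in every lung library, with replicates side by side and bars for the mean and SD of each group. Gins2, Cks1b and Bub3 are higher in every KO library than in any WT library of the same treatment, and replicate 4 of WT AP is the lowest of its group for Pcna, Bub1b, Mki67 and Top2a.

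Replication and mitosis genes were set against each other within each library, as the mean log2(FPKM + 1) of the 30 mitosis genes minus that of the 15 replication genes. This is a description, with no test, since the mean over members rests on a chosen list. In colon the difference was -0.17 to 0.33 in WT AP, -0.26 to 0.04 in WT sham, -0.66 to -0.10 in KO sham and -0.57 to -0.24 in KO AP. All 4 KO AP libraries lay below all 5 WT AP libraries, while the sham groups overlapped. In lung it was -1.04 to -0.55 in WT AP, -1.03 to -0.91 in WT sham, -1.53 to -1.15 in KO sham and -1.33 to -0.93 in KO AP. The lung sham groups did not overlap, and the AP groups did. In colon the mitosis mean was 3.45 ± 0.34 in WT sham, 4.05 ± 0.33 in WT AP and 3.86 ± 0.41 in KO sham (SD, n = 5 each), and 3.09 ± 0.72 in KO AP (SD, n = 4). The replication mean was 3.57 ± 0.34, 3.96 ± 0.26, 4.24 ± 0.61 and 3.45 ± 0.64 in the same order. KO sham replicate 1, with a mitosis mean of 3.14, lay below the other 4 libraries of its group (3.92 to 4.12).

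Other genes of the same pathways gave these counts, from further lists that were also chosen with earlier results of these data known. They were read from the same libraries as the members, so they are no separate support. In KO against WT colon with AP, where 10.9% of all tested genes were lower, 22 of 48 other mitosis genes were lower and none higher, with a median of -0.81, while 0 of 37 other replication genes passed with limma (median -0.25). The lowest p-values were those of Incenp, the scaffold of the chromosomal passenger complex (log2 change -1.28 ± 0.29, limma adjusted p = 0.00672), Ccnf, a cyclin of an SCF ubiquitin ligase (-1.11 ± 0.26), and separase, Espl1 (-1.13 ± 0.27). In sham colon, where 16.0% of all tested genes were higher, 18 of 37 other replication genes were higher, led by Tipin, a replication fork protector (1.13 ± 0.20), the dUTPase Dut (1.12 ± 0.20) and the RPA subunit Rpa2 (0.88 ± 0.21), and 7 of 48 other mitosis genes were higher, close to the share of all genes. In sham lung 22 of 35 other replication genes were higher and 1 lower, and of 33 other mitosis genes 14 were higher and 3 lower, where 28.8% of all tested genes were higher and 30% lower. In AP lung 14 of the 35 were higher and 1 lower, and of the 33 mitosis genes 5 were higher and 6 lower, the last 2 counts below the shares of all genes (27.6% higher and 28.1% lower).

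CDK inhibitors and genes of resting cells changed in both directions. In KO against WT lung with AP, 6 of 15 were higher and 5 lower (27.6% and 28.1% of all tested genes). After sham 3 were higher and 5 lower (28.8% and 30% of all tested genes). In colon with AP, 2 of 16 were higher and 2 lower (7.37% and 10.9% of all tested genes). After sham 2 were lower and none higher (15.4% and 16.0% of all tested genes). Cdkn1a, the p21 inhibitor of CDKs, had a mean of 222 FPKM in WT sham lung, 68.0 in WT AP, 79.7 in KO sham and 55.9 in KO AP. It fell with AP in WT lung (log2 change -1.75 ± 0.26, limma adjusted p = 0.0250), a call lost on the TPM scale, with no filter on low values and with any of 4 WT libraries left out (replicates 3 and 4 of AP, replicates 2 and 3 of sham; adjusted p from 0.000236 to 0.0975 over all alternatives). It was also lower in KO than in WT sham lung (-1.52 ± 0.26). In colon its means lay between 122 and 159 FPKM in the 4 groups and it did not pass in any comparison. Cdkn1b, the p27 inhibitor, was lower in KO lung in sham (-0.97 ± 0.15) and AP (-0.92 ± 0.15) and in KO sham colon (-0.74 ± 0.14). Rb1, the retinoblastoma protein gene, was lower in KO lung in sham (-0.91 ± 0.12) and AP (-0.82 ± 0.12), as was Ccng2, an atypical cyclin (-1.06 ± 0.16 and -0.91 ± 0.16), and Rbl2, a relative of Rb1, was lower in KO sham colon (-0.87 ± 0.17). In KO AP colon the growth arrest gene Gas1 was higher (1.61 ± 0.37, limma adjusted p = 0.00727). Wee1, the kinase that restrains Cdk1, was higher (0.53 ± 0.18) and the p18 inhibitor Cdkn2c lower (-0.64 ± 0.18), calls lost in 12 and 5 of the 26 alternatives.

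Of 11 G1 cyclins, CDKs and E2F genes, 3 were higher and 2 lower in KO sham lung (28.8% and 30% of all tested genes). In KO AP lung 1 was higher and 2 lower (27.6% and 28.1% of all tested genes). None of these counts was above the share of all genes. Cdk4, a G1 kinase, was higher in KO sham lung (0.93 ± 0.14) and KO AP lung (0.75 ± 0.14). Its partner cyclin Ccnd2 was lower (-0.78 ± 0.12 and -0.84 ± 0.12), and so was Cdk6, the other G1 kinase (-0.59 ± 0.11 and -0.62 ± 0.11). With the length trend removed, Cdk6 stood at 0.02 in sham and -0.16 in AP lung and passed in neither. In sham colon 5 of the 11 were higher and none lower (16.0% and 15.4% of all tested genes). They were led by Cdk4 (0.68 ± 0.15), Cdk2 (0.51 ± 0.14) and Ccnd1 (0.61 ± 0.19), whose calls were lost in 1, 1 and 3 of 26 alternatives. In AP colon 2 were lower and none higher (10.9% and 7.37% of all tested genes). E2f2 fell by 1.73 and held in every alternative, and Cdk6 fell by 0.44 with its call lost in 19 of 26.

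Markers of cell types moved with genotype beside these genes. In KO against WT colon, 10.9% of all tested genes passed as lower and 7.37% as higher with AP. After sham 15.4% passed as lower and 16.0% as higher. In lung 28.1% passed as lower and 27.6% as higher with AP, and 30% and 28.8% after sham. The marker counts below are to be read against these shares. In colon, all 8 tested markers of T and NK cells were lower in KO, with AP and after sham alike, 6 and 9 of 10 macrophage markers were lower, and 5 of 7 smooth muscle markers were higher in each. Of 10 endothelial markers 8 were lower with AP and 7 after sham, and 5 of 8 fibroblast markers were lower in each. Endothelial markers summed to 47.9 to 59.1 FPKM in WT sham, 39.6 to 52.8 in WT AP, 32.6 to 39.7 in KO sham and 15.9 to 44.0 in KO AP. Summed T and NK markers lay at 48.8 to 79.6 FPKM in WT sham, 21.5 to 163 in WT AP, 4.65 to 99.9 in KO sham and 3.21 to 8.45 in KO AP, with none of the 10 at 0 in every library of a group. In KO sham, replicate 5 was at 99.9 and the others at 9.16 or less. Summed smooth muscle markers lay at 877 to 1315 FPKM in WT sham, 308 to 1921 in WT AP, 2057 to 5723 in KO sham and 1766 to 3283 in KO AP, and WT AP replicate 5, the highest library for 44 members, was the one at 308. The 10 crypt stem and progenitor markers summed to 124 to 162, 129 to 151, 107 to 171 and 129 to 162 FPKM in the same order, and 1 of 10 was lower in KO in each treatment. Epithelial markers summed to 6454 to 9173, 6868 to 7957, 5987 to 13835 and 5118 to 9319 FPKM, with 1 of 10 lower in AP and 2 higher and 2 lower in sham. Markers of dividing neutrophil precursors were at most 4.55 FPKM in sum in any colon library. In lung all 10 epithelial markers were higher in KO in both treatments. They summed to 470 to 597 FPKM in WT against 791 to 3601 in KO. All 10 T and NK markers were lower in KO lung with AP (10.6 to 28.1 against 44.0 to 164 FPKM). After sham 3 of these 10 were lower, close to the share of all tested genes. In KO lung, 6 of 10 endothelial markers were lower and 1 higher in each treatment, 6 of 8 fibroblast markers were lower with AP and 4 after sham, and 6 and 5 of 8 alveolar type 2 markers were lower. The summed level of the alveolar type 2 markers did not follow these counts after sham. It was 18986 to 28936 FPKM in WT sham (mean 22056) and 12544 to 77614 in KO sham (mean 35178). With AP it was 21484 to 33281 FPKM in WT and 19669 to 23323 in KO. Of 7 smooth muscle markers 5 were higher with AP and 4 after sham, with 1 lower in each. Fibroblast markers summed to 349 to 467 FPKM in WT and 167 to 315 in KO lung, without overlap between the genotypes. The part of these cell types in the changes of the 48 genes was not tested.

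Transcript length is a property the members do not share, and it moved with the changes. Longest transcripts ran from 692 bases for Cks2 and 849 for Cks1b to 10061 for Mki67 and 11130 for Cenpf. Across all tested genes, Spearman's rho between length and log2 change was -0.44 for KO against WT in sham lung, -0.34 in AP lung, -0.32 in sham colon and -0.05 in AP colon, and across the members -0.16, -0.11, -0.35 and 0.13. In KO colon rho between length and the change with AP was 0.55 over the 48 members and 0.24 over all genes. Genes are not independent replicates, and no p is attached. With the length trend removed, 17 members passed in KO against WT AP colon, 9 in sham colon, 14 in AP lung and 19 in sham lung. In AP lung the mitosis genes that were lower went from 7 to 4 and those that were higher from 4 to 3, and Pcna went from a log2 change of 0.39 to 0.05.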

How the data were processed

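RNA was sequenced from lung and colon, and each tissue had 1 table of FPKM values (fragments scaled by transcript length and mapped fragments) that the authors computed and deposited, with 1 column per library. Per the submitters' processing notes, which give no roles, the tools were HISAT2 2.1.0 and StringTie 1.3.3b and the build was mm39. Trimming, annotation and strand handling are not stated in the sources at hand. FPKM is not a count, so the depth was recovered only as relative steps of low values, and no count model was used.

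Within each tissue, genes that reached 1 FPKM in 4 or more libraries were tested with limma 3.58.1 (R 4.3.3, with a mean-variance trend) on log2(FPKM + 1), with 1 mean for each of 4 groups, 5 contrasts per tissue, a Benjamini-Hochberg adjustment over all tested genes and a threshold of 0.05. Groups came from the sample labels. Tests were two-sided. Cd177 was compared with an exact permutation test (two-sided p = 0.00794 in both lung comparisons and in sham colon, 0.0159 in AP colon). The fit was tested on simulated data: with the same spread in every group it recovered changed genes at about the stated error rate, but with the unequal spreads of these groups more unchanged genes passed than the threshold allows, so group weights were added as an alternative.

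The 48 members and all lists were chosen with earlier results of these data known. Named were the 10 genes given in every library, per comparison the 5 members with the lowest p in each direction among those that passed (or the 3 lowest where none did), any other member, up to 3 genes of each further list, and Cdkn1a. Alternatives were a pseudocount of 0.1, no filter, TPM or upper-quartile scaling, removal of a transcript length trend, a replicate block, libraries left out and, added after seeing the data, group weights. Promoter windows were those of RefSeq (GRCm38.p6), and transcript lengths those of GENCODE M21, so no coordinate was carried over to mm39.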

Additional observations from a re-analysis of the deposited data

Results flagged for a closer look

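In 7 of 104 groups of libraries tested, 1 library lay far from the rest of its group, measured as its gap to the nearest library divided by the range of the group. Chance gives about 1 such group in 20. In colon, Cdk1 in KO sham replicate 1 was the lowest, at 6.64 FPKM with the next at 15.4 FPKM (gap ratio 0.928), and the mean log2 level of the mitosis genes in the same library was 3.14 with the next at 3.92 (0.793). Mcm2 in WT sham colon replicate 2 was the lowest, at 5.30 FPKM with the next at 10.1 FPKM (0.739). Mki67 in WT AP colon replicate 5 was the highest, at 23.3 FPKM with the next at 16.1 FPKM (0.735). In lung, Mcm6 in WT AP replicate 4 was the lowest, at 6.08 FPKM with the next at 9.27 FPKM (0.795). Mcm2 in WT sham lung replicate 1 was the highest, at 4.70 FPKM with the next at 3.84 FPKM (0.713), and so was Top2a in KO sham lung replicate 4, at 5.73 FPKM with the next at 3.93 FPKM (0.743).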

How the results depend on the processing

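Some directions turned. The median of the replication genes in KO against WT AP lung went from 0.05 to -0.12 on the TPM scale, -0.023 without WT AP replicate 4 and -0.0028 without KO AP replicate 1, and that of the mitosis genes for AP in KO lung from -0.04 to 0.09 without 3 KO libraries and 0.07 without KO sham replicate 4. Of the genes that passed, Cdk6 turned in KO against WT sham lung, to 0.0165 with the length trend removed. Cdkn1a in colon, which did not pass, lay on both sides of 0 with 1 library left out, from -0.0595 to 0.0554 for AP in WT and from -0.215 to 0.0918 for KO against WT in sham. The size of the median log2 change of the members stayed within the spread of its libraries under each alternative except in KO against WT sham lung, where a pseudocount of 0.1 moved it from 0.33 to 0.60. Counts of members that passed moved by over 1.5 times in these cases, whose cause was not tested. With no filter on low values the count was 0 for AP in WT lung (1 with the filter), 7 for KO against WT in AP colon (18) and 7 in sham colon (12). On the TPM scale it was 0 for AP in WT lung, 12 for KO against WT in sham lung (19) and 5 in sham colon. With the length trend removed it was 0 for AP in WT lung, and with group weights 5.

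With 1 library left out, the count ran from 0 to 1 for AP in WT lung, from 9 to 23 for KO against WT in AP lung, from 16 to 22 in sham lung, from 6 to 30 in AP colon and from 7 to 25 in sham colon. It ran from 0 to 21 for AP in KO colon and from 0 to 29 for the difference between the responses in colon, and was 0 throughout for AP in KO lung, AP in WT colon and the difference in lung. Over all tested genes the largest such moves were from 6 to 1374 genes for AP in KO colon and from 0 to 1170 for the difference in colon, both without KO sham replicate 1, and from 2 to 229 for AP in KO lung. Among the other settings, counts of all genes moved by over 1.5 times only where at most 13 genes passed, to between 0 and 35, or 394 for AP in WT lung with group weights.

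Between groups of a tissue, deviations of same-numbered libraries correlated from -0.524 to 0.465 in colon and from -0.32 to 0.386 in lung. Libraries with unlike numbers were not compared, nor was lung with colon. These values therefore do not settle whether replicate numbers pair the samples. With the replicate block, 9 members passed in KO against WT AP colon, 7 passed in sham colon, and no other total of members moved by over 1.5 times. Among the calls lost with it were Foxm1 in KO against WT AP lung (limma adjusted p = 0.0521) and, in KO against WT AP colon, Cdkn2c (0.0581) and Cdk6 (0.0526).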
